A study of Mus musculus with 6 samples.

Results

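The semaphorin, ephrin, Slit and netrin guidance genes were examined in the proximal incisor of *Arid1b* mutant and control mice. The set was chosen by gene name alone and took in the semaphorins with the plexins and neuropilins that bind them, the ephrins with the Eph receptors, the Slits with the Robo receptors, and the netrins and netrin-G genes with *Dcc*, *Neo1* and the *Unc5* genes. It held 68 of the 19270 genes measured, with 37 ligand and 31 receptor genes. Bulk RNA-seq had been performed on 6 libraries of the proximal incisor, from which, by the study's methods, mesenchymal tissue was dissected, 3 from control and 3 from mutant mice, all given tamoxifen at 1 month of age and collected 4 days after induction. The mutants were Gli1-CreER;Arid1bfl/fl, in which tamoxifen-activated Cre is driven by *Gli1*, so that *Arid1b* is deleted in GLI1+ cells and their progeny and not in the rest of the tissue. The study states that these cells feed both the mesenchyme and the epithelium of the incisor, and that *Arid1b* was lost from both. The controls were labelled wild type, whereas the methods of the study describe its controls as *Arid1b* fl/fl mice that received the same injections.

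The 4 guidance systems were named for steering growing axons and are used in most tissues. Secreted class 3 semaphorins bind neuropilins, which signal through plexins, while the membrane-bound semaphorins bind plexins directly. Ephrins and Eph receptors both sit in the membrane and signal in both directions where cells touch, which sorts cells into separate territories. Slits are large secreted proteins that repel cells through Robo receptors. Netrins attract through DCC and neogenin and repel through UNC5 receptors. In teeth, these systems are known for guiding the sensory nerve fibres and blood vessels that enter the pulp, and SEMA3A for holding axons away from the tooth until the pulp is ready to be innervated.

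The values were the mean of each group as deposited, on a normalized signal scale, and no value per gene and mouse was used. No spread between mice could therefore be given and no difference was tested. A member is called higher or lower in the mutants only where the ratio of the group means passed 1.5 and the mean over both groups was at least 10. By the estimate of the scale, a signal of 10 stood for about 386 reads per library in controls and 432 in mutants.

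*Arid1b*, the targeted gene, had a mean of 97.6 in controls and 38.0 in mutants, a ratio of 0.390. *Gli1*, which marks the cells that express the Cre, had a mean of 106.4 in controls and 46.1 in mutants. The mutants carry the Gli1-CreER allele, which the controls lack by both descriptions, and its own part in the *Gli1* difference was not tested. Estimated depth was 37124000 to 49594000 reads per library. All 7 dental mesenchyme markers were present, with a summed mean of 23254 in controls and 18839 in mutants. *Col1a1* made up most of that sum, at 21211 and 17127. By some amount, 5 of the 7 were lower, while *Prrx1*, at 181.8 and 191.5, and *Twist1*, at 27.4 and 31.9, were higher. All 11 dental epithelium markers, of a tissue outside the mesenchyme that was dissected, had a higher mean in the mutants and their sum was 1647 in controls and 10406 in mutants, with *Enam*, an enamel matrix gene, at 135.8 and 1983. The Y-linked *Ddx3y* was at 0.0259 in controls, by the estimate of the scale the value of a gene with no reads, and at 65.3 in mutants. *Eif2s3y*, *Uty* and *Kdm5d*, also Y-linked, were at 0.0259, 0.0346 and 0.0434 in controls and at 25.3, 29.8 and 27.4 in mutants. *Xist* was at 3368 and 814. By these transcripts the 2 groups differed in the sex of the mice, which the labels do not give. Genotype, sex-linked transcripts and epithelial markers moved together here, and their parts in the differences below cannot be told apart. In such bulk tissue, fewer cells of a type and less RNA per cell cannot be told apart either.

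The bases upstream of the start are shown for 4 members: *Ntn4* and *Epha3*, which were higher by the rule and had an entry in the RefSeq promoter table (GRCm38.p6), and *Epha7* and *Sema3a*, which serve as markers of the set. Each sequence is the 250 bases before an annotated start, read 5′ to 3′ on the gene's strand, and capitals mark the CpG dinucleotides, the site of DNA methylation. The *Ntn4* window is chr10:93640799-93641048 on the plus strand with 26 CpG, the *Epha3* window is chr16:63864176-63864425 on the minus strand with 16, the *Epha7* window is chr4:28812881-28813130 on the plus strand with 25, and the *Sema3a* window is chr5:13396534-13396783 on the plus strand with 2.
Ntn4: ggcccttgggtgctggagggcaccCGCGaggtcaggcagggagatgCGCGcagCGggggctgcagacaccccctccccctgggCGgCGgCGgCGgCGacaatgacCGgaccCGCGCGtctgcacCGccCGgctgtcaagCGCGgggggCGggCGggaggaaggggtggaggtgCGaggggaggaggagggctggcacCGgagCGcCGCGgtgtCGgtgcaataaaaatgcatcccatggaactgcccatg
Epha3: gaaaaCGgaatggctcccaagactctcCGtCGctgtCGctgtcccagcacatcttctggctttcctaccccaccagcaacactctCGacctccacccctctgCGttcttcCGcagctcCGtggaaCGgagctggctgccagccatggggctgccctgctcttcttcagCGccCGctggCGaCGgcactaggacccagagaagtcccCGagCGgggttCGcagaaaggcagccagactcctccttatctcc
Epha7: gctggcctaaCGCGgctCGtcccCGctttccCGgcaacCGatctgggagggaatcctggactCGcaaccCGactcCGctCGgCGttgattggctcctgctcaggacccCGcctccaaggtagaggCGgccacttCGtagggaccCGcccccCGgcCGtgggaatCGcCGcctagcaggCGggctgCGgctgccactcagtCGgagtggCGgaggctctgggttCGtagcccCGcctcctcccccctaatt
Sema3a: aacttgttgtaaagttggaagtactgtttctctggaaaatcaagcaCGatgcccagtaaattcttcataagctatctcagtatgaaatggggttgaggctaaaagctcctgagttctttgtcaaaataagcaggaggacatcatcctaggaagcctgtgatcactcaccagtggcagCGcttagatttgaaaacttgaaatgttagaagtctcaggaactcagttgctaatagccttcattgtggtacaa
The first 3 windows are dense in CpG and the *Sema3a* window is nearly free of them. The *Ntn4* and *Sema3a* windows lie inside their genes, which GENCODE places at chr10:93640681-93747207 and chr5:13125414-13602565, both on the plus strand. These windows thus precede internal starts and do not describe the bases before the most upstream annotated start of either gene. In the RefSeq table, 58 of the 68 members had an entry, with 74 windows among them, and *Ntn1* and *Plxna4* had none. At least 10 CpG were held by 50 of the 74 windows, or 67.6%, compared with 37.8% of the 32851 windows in the table, and the median was 15.5 CpG compared with 6. The median GC content was 64.4% for members and 52.4% for all windows. Of the motifs searched on both strands, the E-box CANNTG was held by 44.6% of member windows and 66.2% of all windows, and the AP-1 site TGANTCA by 4.05% and 6.75%. The GLI site GACCACCCA and the SMAD box GTCTAGAC were in none of the 74 member windows, and in 0.225% and 0.167% of all windows.

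RNA of the guidance genes was detected in the proximal incisor. Of the 68 members, 55, or 80.9%, reached a mean of 10, compared with 10311 of the 19270 genes, or 53.5%. The signal is not divided by length, and the part of gene length in that contrast was not tested. Every member was above the value of 3 reads per library in both groups. Among the 55, 4, or 7.27%, were higher in the mutants and 0 were lower, while of the 10311 genes with that mean 2.15% were higher and 0.912% lower. The 4 were *Ntn1*, *Ntn4*, *Epha3* and *Plxna4*, a netrin pair, an Eph receptor and a plexin. At a smaller fold, a ratio of 5 to 4, 8 members, or 14.5%, were higher and 6, or 10.9%, were lower, compared with 5.11% and 4.33% of the 10311 genes. In any amount, 33 members, or 60%, had a higher and 22 a lower mean, while 5184 of the 10311 genes, or 50.3%, had a higher one. That share of all genes also stands beside the counts by direction given for each family below. The median log2 difference of the members was 0.06 compared with 0.00 over all genes. The means differed by under 0.1 on the log2 scale for 14 of the 55 members, or 25.5%, and for 5867 of the 10311 genes, or 56.9%, a contrast that was not tested. *Plxna4*, with a ratio of 1.53, lay just past the fold of 1.5, and *Ephb1*, with a ratio of 1.41, just short of it.

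**Figure D1:**
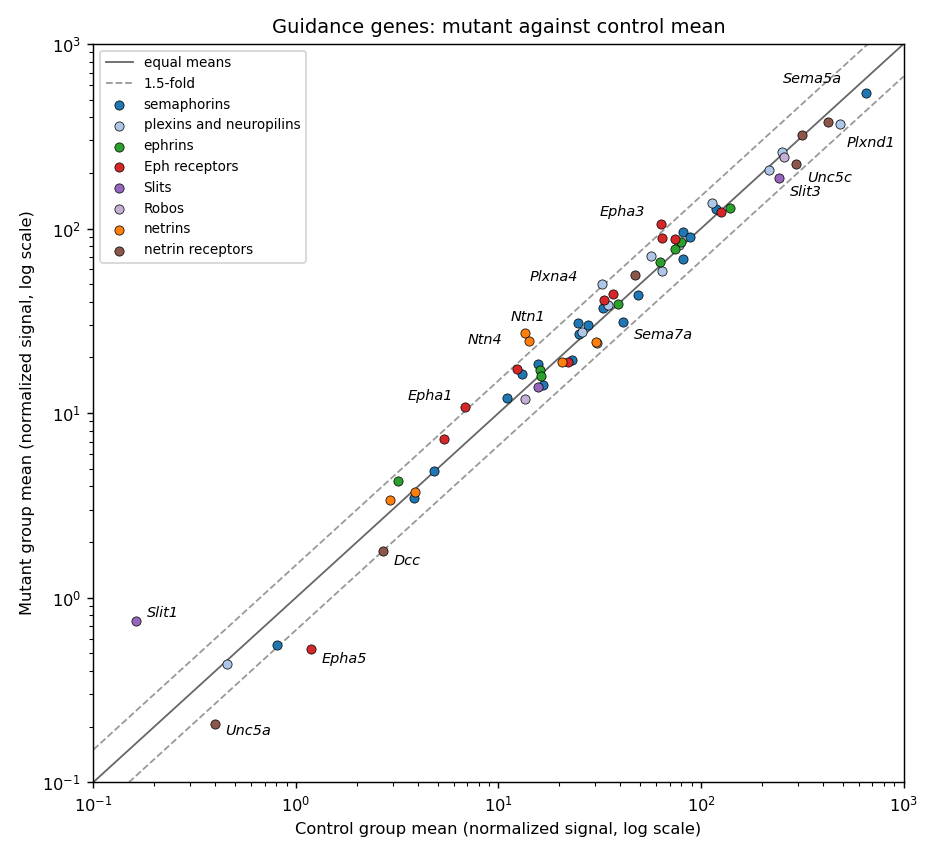
Mean normalized signal of the 68 guidance genes in controls (horizontal, log scale) and in mutants (vertical, log scale), with 1 point per gene coloured by family, a solid line at equal means and dashed lines at a 1.5-fold difference. Above a mean of 10, only Ntn1, Ntn4, Epha3 and Plxna4 lie beyond the upper dashed line and no gene lies beyond the lower one. There are no error bars because the values are group means without a spread.

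Among the netrins, *Ntn1* and *Ntn4* had higher means in the mutants, and the netrin-G gene *Ntng1* a lower one. *Ntn1* encodes the secreted netrin that attracts axons through DCC and repels them through UNC5 receptors. Its mean was 13.5 in controls and 27.0 in mutants, a ratio of 2.00, which placed it at rank 74 of 10311 genes ordered from the highest ratio. The gene lies at chr11:68209364-68400823 on the minus strand. *Ntn4* encodes a netrin that binds laminins in basement membranes. Its mean was 14.1 in controls and 24.6 in mutants, a ratio of 1.75 and rank 117, and it lies at chr10:93640681-93747207. Neither gene shares exon sequence with another annotated gene. Per kilobase of exon, the 4 netrins above the minimum were at 2.15 to 4.05 in controls.

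The other netrin genes did not follow that pattern. *Ntng1*, which encodes a membrane-anchored netrin-G that binds a leucine-rich partner in place of the netrin receptors, was at 30.2 in controls and 24.2 in mutants, a log2 difference of −0.32. *Ntn3* was at 20.7 and 18.9, a log2 difference of −0.13. *Ntn5* and *Ntng2* were below the minimum, at 2.90 and 3.36 and at 3.87 and 3.73. *Ntn5* shares 23.4% of its exon sequence with *Sec1* on the opposite strand, and the strand setting of the counting is not given in the sources used here. The 4 netrins above the minimum thus had 2 higher and 2 lower means, and their median of 0.34 describes none of them.

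The netrin receptors above the minimum had 2 higher and 2 lower means, and none passed 1.5-fold. *Unc5b*, which encodes a repulsive netrin receptor also known from blood vessels, had the highest level per kilobase of all members, with a mean of 424.8 in controls and 376.1 in mutants. *Unc5c*, another repulsive receptor for netrins, was at 296.0 and 224.1, 1.32-fold lower. *Unc5d* was at 47.3 and 56.1, a log2 difference of 0.25. *Neo1*, encoding neogenin, which binds netrins and also repulsive guidance molecules, was at 316.0 and 320.9, a log2 difference of 0.02. *Dcc*, the classical attractive receptor, was at 2.68 and 1.79 and *Unc5a* at 0.397 and 0.206, both far below the other netrin receptors. The tissue thus carried netrin receptor RNA mainly from *Unc5b*, *Unc5c* and *Neo1*, in both groups.

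Eph receptors had the highest family median among the receptors, 0.28 on the log2 scale, with 6 of the 8 members above the minimum higher in the mutants by some amount. *Epha3* encodes a receptor for ephrin-A ligands. Its mean was 63.8 in controls and 106.2 in mutants, a ratio of 1.67 and rank 142, and it lies at chr16:63543534-63864175 on the minus strand. The next were *Ephb1*, at 12.4 and 17.4, and *Epha4*, a receptor that binds both ephrin classes, at 64.0 and 88.8, a ratio of 1.39. *Epha7*, a receptor known for repelling axons and for shaping the developing cortex, was at 74.0 and 88.1, a ratio of 1.19. *Epha2* was at 33.3 and 41.0. All 4 EphA genes above the minimum thus had a higher mean in the mutants, with a median of 0.39, while the 4 EphB genes had 2 higher and 2 lower and a median of 0.12.

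The EphB genes included the most abundant Eph receptor. *Ephb4*, which marks veins and pairs with ephrin-B2, was at 126.0 in controls and 123.1 in mutants and had the highest level per kilobase of the family. *Ephb3* was at 36.6 and 44.1. *Ephb6*, which encodes a receptor that lacks kinase activity, was at 22 and 18.9, the lowest log2 difference of the family at −0.22. Below the minimum, *Epha1* was at 6.87 and 10.8, *Ephb2* at 5.37 and 7.26, and *Epha5* at 1.19 and 0.529. *Epha1* shares 6.01% of its exon sequence with *Zyx* on the opposite strand.

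Their ligands, the ephrins, lay closest to equality of the 8 families. Of 7 ephrins above the minimum, 6 were within 0.1 on the log2 scale, and the range ran from −0.10 for *Efnb1* to 0.10 for *Efna2*. *Efnb1*, a transmembrane ephrin that sets boundaries between cell groups in the skull and face, was the most abundant per kilobase, with means of 138.3 and 129.1. *Efnb2*, the arterial partner of *Ephb4*, was at 79.7 and 84.0. *Efnb3* was at 74.6 and 77.6, and *Efna5*, a membrane-anchored ligand of EphA receptors, was at 62.6 and 65.5. *Efna2* was at 16 and 17.2, *Efna1* at 38.7 and 38.8, and *Efna4* at 16.2 and 15.9. Only *Efna3*, at 3.19 and 4.31, fell under the minimum. Summed over the ephrins above the minimum, the mean was 426.1 in controls and 428.0 in mutants, and over the Eph receptors 432.1 and 527.7. The ephrin-A genes summed to 133.5 and 137.4 and the EphA genes to 235.1 and 324.2. The ephrin-B genes summed to 292.6 and 290.6 and the EphB genes to 197.0 and 203.5.

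**Figure D2:**
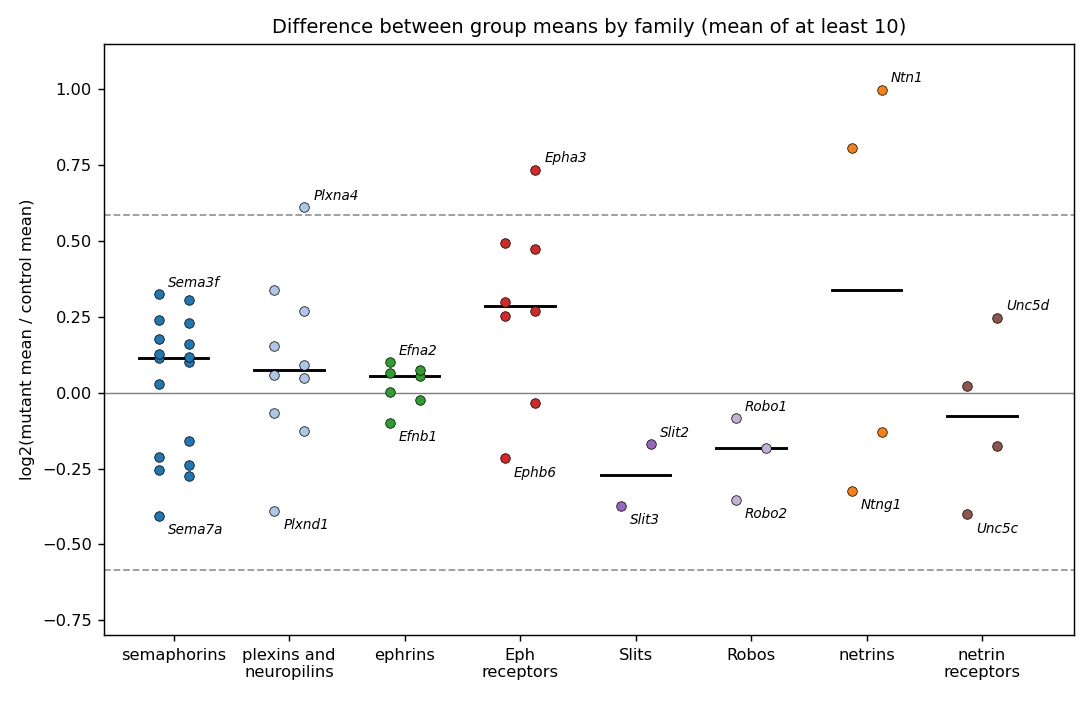
Log2 ratio of the mutant mean to the control mean for the 55 guidance genes with a mean of at least 10 (vertical), by family (horizontal), with 1 point per gene a bar at the family median and dashed lines at a 1.5-fold difference. The ephrins lie between −0.10 and 0.10, the Eph receptors and netrins extend upward to Epha3 and Ntn1, and all 5 Slits and Robos plotted lie below 0.

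The 5 Slits and Robos above the minimum all had lower means in the mutants, though none passed 1.5-fold. *Slit3*, a ligand also known from the vessels and the skeleton, was at 244.0 in controls and 188.3 in mutants, 1.30-fold lower, and lies at chr11:35121224-35708507. *Slit2*, the ligand best known for repelling axons at the midline, was at 15.6 and 13.9, a log2 difference of −0.17. *Robo2*, a Slit receptor, was at 30.7 and 24.1, 1.28-fold lower, *Robo1*, the most abundant Slit receptor here, at 258.2 and 243.8, and *Robo4*, the receptor of endothelial cells, at 13.5 and 11.9. All 5 genes above the minimum were lower by some amount, with a median of −0.18, while 5127 of 10311 genes had a lower mean. The dental mesenchyme markers had a median of −0.28, and their part in the lower Slit and Robo means was not tested. *Slit1* stood apart at the bottom of the range, with 0.162 in controls and 0.747 in mutants, which by the estimate of the scale is about 5.3 and 31.4 reads per library.

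Semaphorins formed the largest family, and their differences were small in both directions. Of 20 members, 17 reached the minimum, 11 with a higher and 6 with a lower mean in the mutants, and the range ran from −0.41 to 0.33. Among the class 3 semaphorins, which are secreted, 6 of 7 had a higher mean, with a median of 0.16. *Sema3a*, the repellent for sensory axons, was at 24.7 in controls and 30.6 in mutants, a ratio of 1.24. *Sema3f*, a ligand that acts through neuropilin-2, was at 13.0 and 16.3, a log2 difference of 0.33 and the highest of the family. *Sema3d* was at 81.3 and 95.3, and *Sema3e*, a ligand that binds plexin-D1 directly and steers vessels, at 88.4 and 90.3. The exception was *Sema3g*, known from arteries, at 23.0 and 19.5.

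The membrane-bound semaphorins held the member with the highest mean and the one with the lowest log2 difference of the 55. *Sema5a*, which carries thrombospondin repeats, was at 652.5 in controls and 540.1 in mutants, a log2 difference of −0.27, the highest mean of all 68 members. *Sema7a*, which is anchored by a lipid and binds plexin-C1 and integrins, was at 41.1 and 31.0, 1.33-fold lower. *Sema4d*, the ligand of plexin-B1 known for restraining osteoblasts, was at 81.3 and 68.2. *Sema6d* was at 118.3 and 126.9, and *Sema6a* at 32.9 and 37.2. *Sema4f*, *Sema5b* and *Sema6b* were below the minimum, *Sema5b* at 0.807 and 0.554.

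Plexins and neuropilins, the receptors for semaphorins, had 7 higher and 3 lower means among the 10 above the minimum, with a median of 0.07. *Plxna4*, which transmits class 3 semaphorin signals in sensory neurons, was at 32.6 in controls and 49.8 in mutants, a ratio of 1.53 and rank 209. It lies at chr6:32144268-32588192 on the minus strand and shares 0.78% of its exon sequence with the antisense transcript *Plxna4os3*. *Plxnd1*, the receptor for SEMA3E in vessels, was at 484.2 and 369.7, 1.31-fold lower, and lies at chr6:115954811-115995005. *Plxnb1* was at 56.3 and 71.2, a ratio of 1.26. *Plxna1* was at 216.3 and 206.6, *Plxna2* at 78.0 and 81.2, *Plxna3* at 25.8 and 27.5, *Plxnb2* at 252.4 and 261.2, and *Plxnc1* at 34.8 and 38.7. These lay between a log2 difference of −0.07 and 0.16. The co-receptor *Nrp2* was at 113.9 and 137.4, and *Nrp1*, the co-receptor of SEMA3A and VEGFA, at 63.9 and 58.5. Among the plexin-A genes, then, *Plxna4* was higher, *Plxna2* and *Plxna3* had slightly higher means and *Plxna1* a slightly lower one. The mean of *Nrp1* was also slightly lower.

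Levels were compared between genes per kilobase of annotated exon, since the signal is not divided by length. In controls *Unc5b* came first with 67.9 per kilobase, followed by *Plxnd1* with 66.3, *Slit3* with 40.2, *Efnb1* with 40.1, *Neo1* with 36.3, *Sema5a* with 34.9, *Plxnb2* with 32.7, *Ephb4* with 27.2, *Plxna1* with 23.9 and *Efnb3* with 23.4. Neighbours such as *Unc5b* and *Plxnd1*, or *Slit3* and *Efnb1*, differ too little to be ordered without a spread between mice. All 4 systems were represented among the 10 highest, by 6 receptors and 4 ligands. The members higher in the mutants sat well below them on this scale, from 2.15 for *Ntn1* and 2.31 for *Plxna4* to 3.77 for *Ntn4* and 7.34 for *Epha3* in controls. In mutants their levels were 4.31, 3.53, 6.59 and 12.2 per kilobase.

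**Figure D3:**
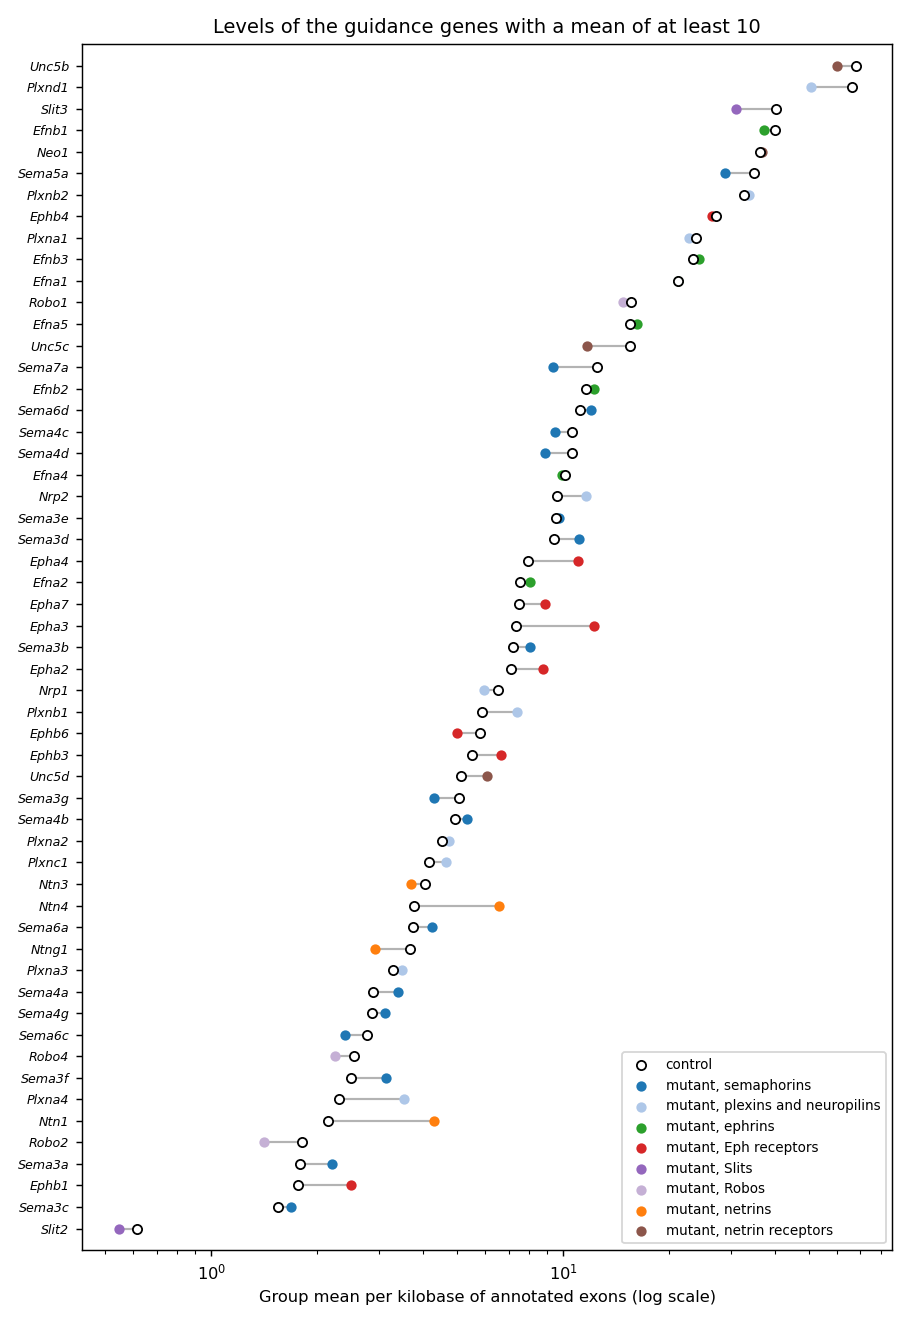
Group mean per kilobase of annotated exon (horizontal, log scale) for each of the 55 guidance genes with a mean of at least 10, ordered by the control level, with open circles for the control mean and filled circles, coloured by family, for the mutant mean. Unc5b and Plxnd1 are at the top with 67.9 and 66.3 in controls, Slit2 is at the bottom with 0.614, and the lines that reach farthest to the right of the open circle are those of Ntn1, Ntn4 and Epha3.

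The partners of these systems were described from a list of 46 genes, comprising co-receptors, other ligands of the same receptors and cytoplasmic proteins that carry their signals. Of these, 44 were in the table and 32 reached the minimum, of which 11 had a higher and 21 a lower mean in the mutants, with a median log2 difference of −0.05. By the fold of 1.5, 1 of the 32, or 3.12%, was higher and 0 were lower, near the 2.15% and 0.912% of all genes. The gene that was higher was *Mical2*, an enzyme that oxidises actin, at 17.4 in controls and 28.6 in mutants. *Ablim1*, an actin-binding protein linked to netrin signalling, was at 58.7 and 83.6. *Sdc3*, a heparan sulfate proteoglycan, was at 994 and 717, and *Lrrc4*, which encodes a netrin-G ligand, at 30.9 and 21.4. The small GTPases *Rac1*, *Cdc42* and *Rhoa*, the common endpoints of guidance receptors, were at 316.2 and 317.8, at 446.1 and 425.6 and at 381.9 and 383.7. *Sdc3* and *Lrrc4* were named after their values were seen, as the lowest log2 differences above the minimum.

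Marker lists gave the levels of cell types that could carry guidance gene RNA. The 10 endothelial markers, from a cell type in which *Plxnd1*, *Robo4*, *Ephb4*, *Efnb2* and *Unc5b* are known to act, summed to 521.4 in controls and 528.6 in mutants, and their log2 differences ran from −0.16 to 0.17. The 6 perivascular markers summed to 808.6 and 714.2, with 4 of 6 lower by some amount. Of the 5 odontoblast markers, 4 were lower by some amount, *Dmp1* at 68.1 and 23.7, and the list summed to 6436 and 5129. All 6 macrophage markers had a higher mean, with a median log2 difference of 0.21. Of the Schwann cell list, 7 of 8 genes were in the table, summing to 48.7 and 51.1, and 3 of the 7 had a higher mean in the mutants. *Mbp*, the only gene of that list to reach the minimum, was at 11.3 and 15.2, and *Sox10*, the defining factor of Schwann cells, at 1.09 and 0.798. Of the neuronal list, 4 of 6 were in the table, with *Tubb3* at 32.0 in controls and 42.0 in mutants, *Scn9a*, a sodium channel of sensory neurons, at 2.07 and 0.771, *Nefm* at 0.153 and 0.281 and *Nefl* at 0.0589 and 0.257. The 3 skeletal muscle markers summed to 3.57 and 3.53. The epithelial list differed most, with 10 of its 11 genes past 1.5-fold at a mean of at least 10, from 0.78 for *Epcam* to 3.87 for *Enam* on the log2 scale. The part of these cell types in the differences of *Ntn1*, *Ntn4*, *Epha3* and *Plxna4* was not tested.

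**Figure D4:**
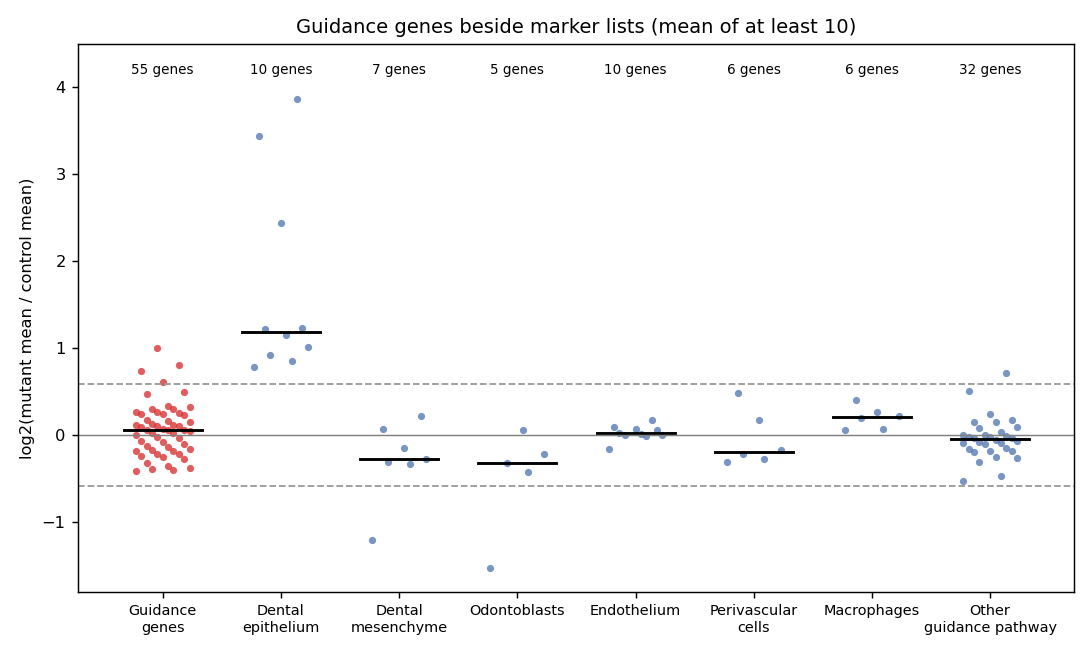
Log2 ratio of the mutant mean to the control mean (vertical) for the 55 guidance genes, for 6 marker lists and for the other guidance pathway genes (horizontal), with 1 point per gene with a mean of at least 10, a bar at each median and dashed lines at a 1.5-fold difference. The 10 dental epithelium genes all lie above the upper dashed line with a median of 1.18, and the 10 endothelial genes lie near 0.

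Below the minimum of 10 were 13 members: *Slit1*, *Epha1*, *Epha5*, *Ephb2*, *Efna3*, *Dcc*, *Unc5a*, *Ntn5*, *Ntng2*, *Plxnb3*, *Sema4f*, *Sema5b* and *Sema6b*. With no minimum, 7.37% of the 19270 genes were higher and 5.8% lower by 1.5-fold. By that count 6 members, or 8.82%, were higher, with *Slit1* and *Epha1* added, and 2, or 2.94%, were lower, *Epha5* and *Unc5a*. The share of higher members was near that of all genes, and *Slit1* and *Unc5a* rest on few reads. *Plxnb3* and *Unc5a* had the lowest control means of the receptors, at 0.456 and 0.397. Per kilobase of exon, the lowest receptors in controls were *Plxnb3* at 0.0702, *Epha5* at 0.0711 and *Unc5a* at 0.0952.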

How the data were processed

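Transcriptomes of proximal incisor tissue, dissected as mesenchyme per the study's methods, were measured by bulk RNA-seq in 3 control and 3 mutant libraries, and groups were taken from the sample titles. The study's methods state that reads were trimmed, aligned to mm10 and compared in Partek Flow, and the submitters' processing notes name TopHat2 2.0.8. The deposited values were, per gene, the least-squares mean of a normalized signal in each group as the authors computed it, and, per library, the lowest, mean and upper quartile of that signal over genes. The other deposited columns hold the authors' own p-values, FDR, ratios and fold changes, and none was used, nor were a second table limited to genes past their threshold and 4 other columns of per-library summaries. No value per gene and library was used, so no test, SD or interval is given, and replicates could not be compared.

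The upper quartiles were nearly equal (44.57 to 44.58), and the lowest group means, 0.0259 and 0.0231, equalled the means of the library minima. From this the signal was taken to be reads plus 1, times 1 factor per library. Estimated reads rest on that inference and cover no spread between mice.

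The log2 ratio of the means was computed for all 19270 genes with Python 3.11.15, numpy 2.4.6 and pandas 2.3.3, after a test on simulated data. Figures were drawn with matplotlib 3.10.9. Exon lengths and positions are from GENCODE vM21 (GRCm38, the assembly of mm10), in which 18840 gene names and all 68 members matched 1 gene. Named members were those past 1.5-fold at a mean of at least 10, *Sema3a*, *Epha7* and *Slit2*, and in each family those with the highest level per kilobase in controls and the highest and lowest log2 difference; further members are given for completeness. Members and lists were chosen with earlier results of these data known. Alternatives were other folds and minimum means, centring on the median gene, a pseudocount of 1, a mean over members where the median is given, and the length of the longest transcript.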

Additional observations from a re-analysis of the deposited data

How the results depend on the processing

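No paired analysis was possible because the values are group means, and for the same reason no library could be left out in turn. At a ratio of 5 to 4 in place of 1.5, 8 members were higher and 6 lower, and at a fold of 2 there were 0 of either, compared with 0.708% and 0.233% of all genes. *Ntn1*, with a ratio of 2.00, lay just under the fold of 2. With no minimum mean, 6 members (8.82%) were higher and 2 (2.94%) lower, compared with 7.37% and 5.8% of all genes, and with a minimum of 1 there were 5 (7.94%) and 0, compared with 4.14% and 1.91%. With a minimum of 100, only 13 members and 2057 genes were left, 0 members and 30 genes (1.46%) were higher by 1.5-fold, and the median log2 difference turned to −0.083, compared with −0.02 over all genes at that minimum. The 42 members between 10 and 100 had a median of 0.11. The family medians that turned at the minimum of 100 were −0.085 for semaphorins, −0.0081 for plexins and neuropilins, −0.0997 for ephrins and −0.034 for Eph receptors. At that minimum the ephrin value is that of *Efnb1* alone and the Eph receptor value that of *Ephb4* alone. Of the semaphorins, only *Sema5a* and *Sema6d* were left. The Slit and Robo values at that minimum, given next, are likewise those of *Slit3* alone and *Robo1* alone. Without turning, the median of netrins moved from 0.34 to 0.08 with no minimum or a minimum of 1, that of netrin receptors from −0.08 to −0.29 with no minimum and −0.18 with a minimum of 1 or 100, that of Slits from −0.27 to −0.17 with no minimum and −0.37 with a minimum of 100, that of Robos from −0.18 to −0.083 with a minimum of 100, and that of semaphorins from 0.11 to 0.07 with no minimum. As a mean over members, the semaphorins were at 0.02 and the ephrins at 0.03. Centring on the median gene and a pseudocount of 1 left the counts at 4 and 0, and all 46 values of the 23 named members moved by under 0.1. With the longest transcript as the length, 8 of the 10 members highest per kilobase were shared. Depth limits *Slit1*, *Unc5a* and *Plxnb3*, and the absence of a spread between mice limits every value.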
